A study of Mus musculus with 8 samples.

Results

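The genes described here are those that RNA sequencing of mouse embryonic fibroblasts (MEFs) found at least 2-fold lower in cells expressing EZHIP and within 2-fold of control both in cells expressing the histone mutant H3.3 K27M and in cells lacking EED. They were chosen by these measured values. For each group, L was the log2 of the mean of its 2 libraries plus 1, and the log2 difference from control was L of the group minus L of control. A gene was kept at a difference of -1 or less in EZHIP cells and between -1 and 1 in both K27M and EED-null cells, and symbols of transporter, channel, matrix, protease, integrin, Hox, Zic and forkhead families and 3 imprinted genes were dropped, which removed 9 genes. This left 76 of the 875 genes of the deposited table, out of 379 genes that met the limit in EZHIP cells.

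All 4 groups came from MEFs of embryos with loxP sites in EED, with 2 libraries per group. Control was the parental floxed line, EZHIP cells carried a lentiviral human EZHIP transgene, K27M cells a lentiviral H3.3 K27M transgene, both driven by the EF1a promoter and selected with puromycin, and the EED-null line was 1 clone isolated after transient lentiviral Cre, so that a clonal difference cannot be told apart from the loss of EED. The labels do not say that the 2 libraries of a group came from separate cultures, and p-values measure only the spread between these libraries. EED and the human transgene were not among the 875 genes, so the labels could not be checked against the altered gene, and of 19 fibroblast markers 3 were in the table, all 3 were at or below the limit in EZHIP cells and 0 were among the 76 genes.

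Polycomb repressive complex 2 (PRC2) methylates lysine 27 of histone H3, a mark of silenced developmental genes. EZH2 is its catalytic subunit, EED binds the methylated histone and is needed for activity, and accessory subunits such as the Polycomb-like protein PHF19 help it to find chromatin. EZHIP and H3 K27M both inhibit the enzyme, whereas deletion of EED removes its activity. A gene that passed the 2-fold limit in EZHIP cells alone could still be lower by less in the other lines. On the deposited scale 38 of the 76 genes were below control in both K27M and EED-null cells.

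The table held between 209390 and 424561 estimated reads per library. The 76 genes took 9.72% and 9.76% of these reads in the control libraries, 7.61% and 7.62% in EED-null, 9.38% and 9.33% in K27M and 3.97% and 4.0% in EZHIP libraries. The EZHIP libraries held 10490 and 10785 reads on these genes, against 29785 and 41446 in control, so the relative counting error was widest in the group that defined the genes. Values are normalized expression, that is estimated reads divided by 1 size factor per library, and they were not scaled by gene length. They serve to compare a gene between groups, not genes with each other, and in bulk RNA fewer expressing cells and less RNA per cell cannot be told apart.

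Across the 76 genes the median log2 difference from control was -0.41 in EED-null, -0.19 in K27M and -1.38 in EZHIP cells. By library these medians were -0.36 and -0.39 in EED-null, -0.19 and -0.17 in K27M, and -1.37 and -1.41 in EZHIP cells. The replicate medians thus lay close together, but replicates of single genes could differ more, as for *Ednra* at 88.7 and 50.4 in EED-null libraries. Over all 875 genes the medians were 0.40, 0.59 and 1.16 in the same order, and over the 304 other genes with a lower mean in EZHIP cells they were -1.37, -1.08 and -1.71. Because the rule bounded all 3 values, these figures describe the selection and are not a test. The EZHIP difference was large in few genes. It was -2 or less in 9 genes, between -2 and -1.5 in 21 and above -1.5 in 46.

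**Figure D1:**
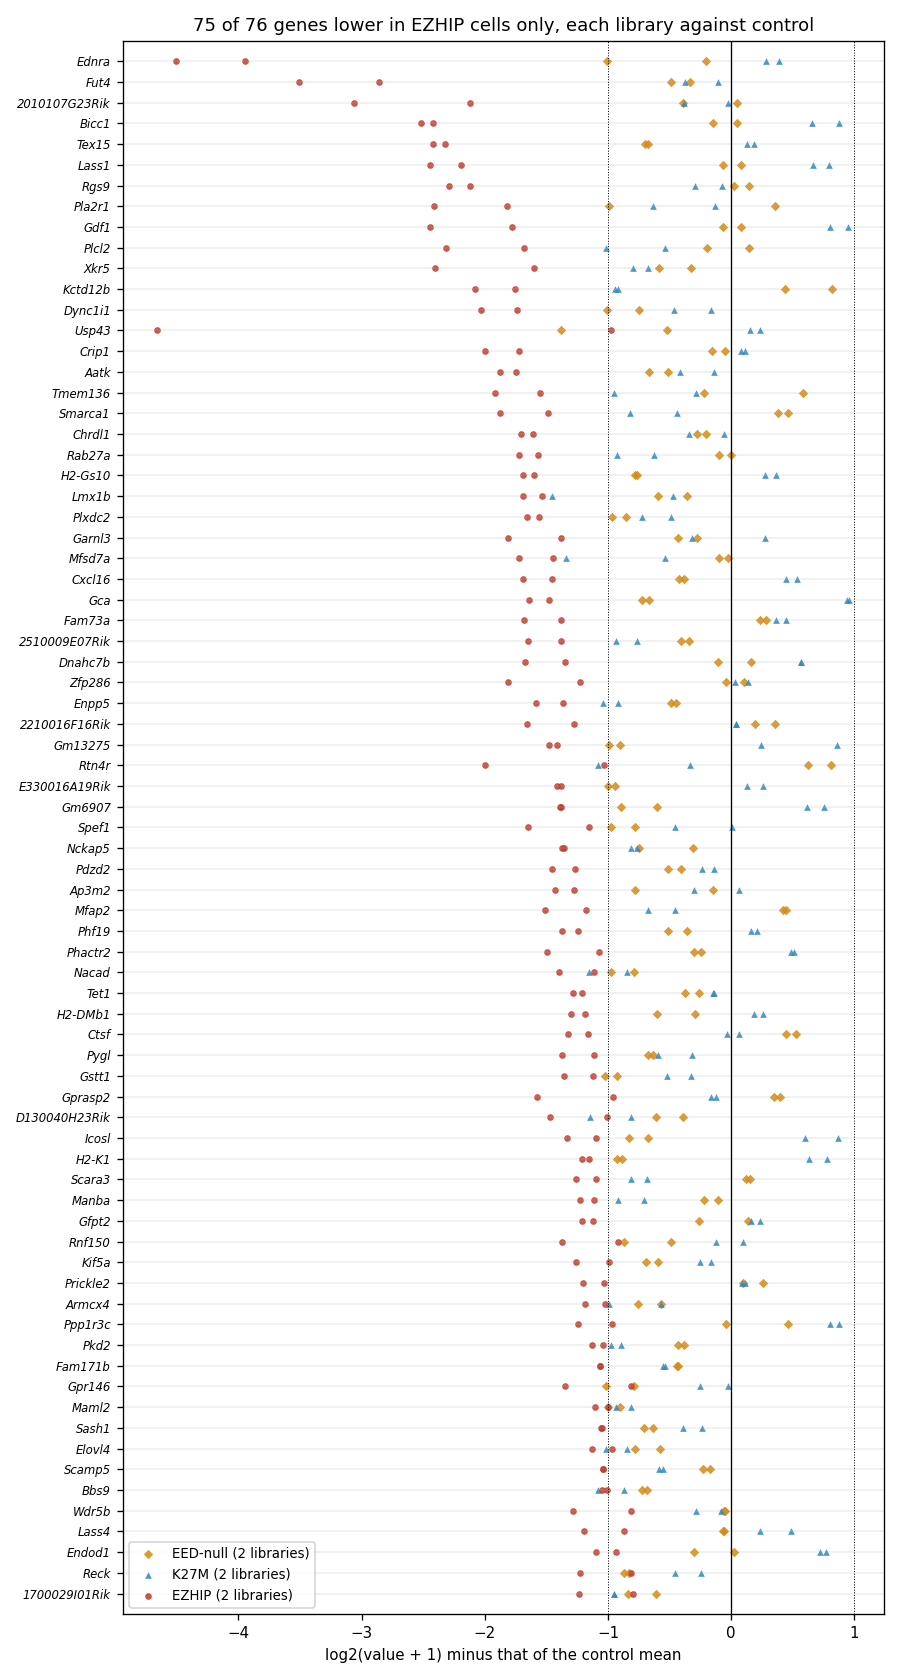
Log2(value + 1) of each EZHIP, K27M and EED-null library minus that of the control mean (x axis) for 75 of the 76 genes (y axis, ordered by the EZHIP difference of group means). Each symbol is 1 library, and the dotted lines mark 2-fold. Differences of group means ran from -4.20 for *Ednra* to -1.002 for *1700029I01Rik* in EZHIP cells. The K27M and EED-null symbols lie on both sides of the solid line at control, more of them below it than above.

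The genes did not sit evenly around control in the other lines. In K27M cells 30 genes were above and 46 below control, with 38 within 0.5 of it, and in EED-null cells 18 were above and 58 below, with 45 within 0.5. Both lines were below control for 38 genes and above it for 10. K27M was above and EED-null below for 20 genes, and the reverse held for 8. Only 23 genes lay within 0.5 of control in both lines, and 8 were lower than -0.5 in both. These signs depend on the scale, since rescaling each library on the listed genes moved the median of all genes by -0.39 in EED-null, -0.44 in K27M and -0.32 in EZHIP cells. Such rescaling takes most genes as unchanged. The listed genes were selected as at least 2-fold different in EZHIP cells, with a median of 1.16 there, so part of the shift follows from that selection. Which scale is nearer to the true levels was not tested. On the rescaled values 14 genes were above control in K27M and 6 in EED-null cells, and all 76 stayed below control in EZHIP cells. By these values 38 genes met the rule, of which 32 were among the 76.

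The thresholds cut through a continuous range. At the EZHIP limit, *1700029I01Rik* (-1.002), *Reck* (-1.003) and *Endod1* (-1.01) were just inside, and *Tmem181a* was just outside at -0.9998. At the lower limit in K27M cells, *Nacad* (-0.99), *Enpp5* (-0.98) and *Bbs9* (-0.97) were inside and *Ramp2* (-1.07) was the first gene outside. At the upper limit *Gca* (0.95) and *Gdf1* (0.88) were inside and *Wnt5a* (1.07) was outside. In EED-null cells *Gstt1* (-0.98), *E330016A19Rik* (-0.97) and *Maml2* (-0.95) were inside the lower limit and *Tap1* (-1.02) was outside, and *Rtn4r* (0.72) was the nearest to the upper limit, with *Dkk3* (1.08) outside. *Nacad*, *Enpp5*, *Bbs9*, *Gstt1*, *E330016A19Rik* and *Maml2*, with the genes just inside the EZHIP limit, are thus among those that belong to the group by a narrow margin.

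Both EZHIP libraries were below both control libraries for all 76 genes, as the rule nearly ensures, against 43.4% of all genes of the table. Both were below all 6 other libraries for 67 of the 76 genes, against 18.4% of all genes, and nothing is read from this count since the rule favours it. The 9 genes in which an EZHIP library overlapped with another line were *1700029I01Rik*, *Bbs9*, *D130040H23Rik*, *Elovl4*, *Gpr146*, *Nacad*, *Reck*, *Rtn4r* and *Usp43*. *Usp43*, named here after its values were seen, held 10 and 0 estimated reads in the EZHIP libraries, against 25 and 31 in control, so its mean rests on 1 library at 0.

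Sequences at the start of 4 of the genes described here are given as examples. They are the lowest gene in EZHIP cells, the first gene of a pair with overlapping loci, the PRC2 subunit among the 76 genes and an MHC class I gene. Each is 250 bases before to 50 bases after the annotated start, read 5′ to 3′ on the gene's strand, from RefSeq on GRCm38.p6, with CG dinucleotides in capitals.
Ednra, chr8:77724403-77724702, minus strand: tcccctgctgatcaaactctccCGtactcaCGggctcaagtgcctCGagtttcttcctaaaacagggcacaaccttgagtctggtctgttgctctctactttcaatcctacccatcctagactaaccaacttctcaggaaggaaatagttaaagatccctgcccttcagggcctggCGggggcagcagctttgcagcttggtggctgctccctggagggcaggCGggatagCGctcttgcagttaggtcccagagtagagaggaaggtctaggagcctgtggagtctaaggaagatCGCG
Lass1, chr8:70315525-70315824, plus strand: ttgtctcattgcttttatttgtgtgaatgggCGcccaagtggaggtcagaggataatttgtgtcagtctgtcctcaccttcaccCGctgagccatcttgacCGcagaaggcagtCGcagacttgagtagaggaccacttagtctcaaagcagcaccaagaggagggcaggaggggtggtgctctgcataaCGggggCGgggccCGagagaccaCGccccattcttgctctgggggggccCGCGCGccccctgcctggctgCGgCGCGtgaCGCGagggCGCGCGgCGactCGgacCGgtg
Phf19, chr2:34913927-34914226, minus strand: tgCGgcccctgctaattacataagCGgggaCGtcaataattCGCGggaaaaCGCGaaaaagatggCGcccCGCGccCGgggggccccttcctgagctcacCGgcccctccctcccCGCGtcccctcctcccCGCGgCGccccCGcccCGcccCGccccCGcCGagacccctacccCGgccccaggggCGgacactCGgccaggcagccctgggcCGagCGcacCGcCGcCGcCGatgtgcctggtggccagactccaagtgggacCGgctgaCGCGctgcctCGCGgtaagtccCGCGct
H2-K1, chr17:34000298-34000597, minus strand: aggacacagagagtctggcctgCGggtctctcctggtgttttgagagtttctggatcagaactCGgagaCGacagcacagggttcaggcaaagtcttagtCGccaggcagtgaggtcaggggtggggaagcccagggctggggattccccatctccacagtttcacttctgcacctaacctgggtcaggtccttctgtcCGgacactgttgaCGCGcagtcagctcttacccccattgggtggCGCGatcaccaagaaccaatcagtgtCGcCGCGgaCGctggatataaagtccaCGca

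These windows held 8, 22, 38 and 14 CG dinucleotides, against a median of 7 over 32851 RefSeq promoters of the same length. For *Phf19*, 4.95% of all promoters held as many. The letters GGGCGG, on either strand, occurred 4 times in the *Phf19* window, once in that of *Lass1* and in 35.7% of all promoters. *H2-K1* alone of the 4 held TATAAA, once, and CCAAT, 2 times, which occur in 13.6% and 37.4% of all promoters. Promoters were matched for 55 of the 76 genes, too few to compare the genes as a set with others.

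Receptors, ligands and their signalling proteins were the most numerous role, with 16 of the 58 genes whose known function placed them in 1 of 7 roles (the roles were assigned after the values were seen). Their median log2 difference was -0.26 in EED-null, -0.19 in K27M and -1.60 in EZHIP cells. *Ednra* encodes the endothelin receptor A, a G protein-coupled receptor through which endothelin acts on mesenchymal cells. Its normalized expression was 99.6 and 106 in control, 88.7 and 50.4 in EED-null, 134 and 125 in K27M and 3.55 and 5.70 in EZHIP libraries. The EZHIP values stood far below all others and rested on 3 and 5 estimated reads. The log2 difference from control was -0.55 in EED-null, 0.34 in K27M and -4.20 in EZHIP cells, the K27M sign turning on the rescaled values, and the EED-null libraries differed from each other more than the control libraries did.

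*Rgs9*, a regulator that switches off G protein signalling, gave 192 and 207 in control, 220.4 and 203 in EED-null, 189 and 163 in K27M and 45 and 39.9 in EZHIP libraries. On the deposited scale it was among the genes that stayed closest to control in both other lines, at -0.18 in K27M and 0.08 in EED-null cells. Its EZHIP mean was 21.3% of control. *Chrdl1*, a secreted antagonist of bone morphogenetic proteins, gave 122 and 128 in control, 108 and 103 in EED-null, 98.3 and 119.8 in K27M and 40.2 and 37.6 in EZHIP libraries. *Plcl2*, a phospholipase C relative without catalytic activity, gave 111 and 120.3 in control, 128 and 101 in EED-null, 56.6 and 79.6 in K27M and 22.5 and 35.3 in EZHIP libraries. The K27M libraries of *Plcl2* lay between EZHIP and control, with no overlap, whereas its EED-null libraries overlapped with control. *Prickle2*, a planar cell polarity protein, gave 274 and 264 in control, 322 and 288 in EED-null, 291 and 286 in K27M and 116 and 131 in EZHIP libraries, so that only the EZHIP libraries were below control on the deposited scale. It was the 1 gene of the group among 22 listed genes of the Wnt pathway, as *Chrdl1* was among 12 of the TGF-beta and BMP pathway. *Maml2*, a coactivator of Notch, was the 1 among 10 of the Notch and Hedgehog pathways, and its values of 387 and 362 in EED-null, 379 and 413 in K27M and 362 and 336 in EZHIP libraries were close together and all below the 727 and 725 of control.

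*Gdf1*, a ligand of the TGF-beta family, and *Lass1*, the ceramide synthase now named Cers1, were measured over the same stretch of chromosome 8 (mm9, 72839686 to 72855486 for *Lass1* and 72853664 to 72855486 for *Gdf1*, both on the plus strand). *Gdf1* lies at the 3′ end of the *Lass1* locus, and the 2 genes had identical values in the control and EED-null libraries, so their reads cannot be assigned to 1 of them, although each is counted among the 76 genes and in every count of calls. *Lass1* gave 71.9 and 54.6 in control, 60.3 and 66.9 in EED-null, 101 and 110.1 in K27M and 13.1 and 10.8 in EZHIP libraries. *Gdf1* was at 17.7 and 10.8 in EZHIP libraries and higher in both K27M libraries (mean 117 ± 8.43, SD, n = 2). The locus was lowest in EZHIP cells, as the rule ensures. It overlapped with control in EED-null cells and was highest in K27M cells, with a K27M difference of 0.73 for *Lass1* on the deposited scale.

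Among the enzymes of lipid, sugar and lysosomal metabolism, 11 genes with a median difference of -0.16 in EED-null, -0.24 in K27M and -1.24 in EZHIP cells, *Fut4* was lowest. It encodes a fucosyltransferase that can make the Lewis X antigen. Its values were 45.2 and 53.1 in control, 34.7 and 38.8 in EED-null, 45.4 and 37.6 in K27M and 5.92 and 3.42 in EZHIP libraries. The EZHIP libraries held 5 and 3 reads and lay below all 6 others by a wide margin. *Ppp1r3c*, a subunit that directs protein phosphatase 1 to glycogen, gave 23.6 and 38.4 in control, 43 and 30 in EED-null, 54.7 and 57.7 in K27M and 15.4 and 12.5 in EZHIP libraries, with K27M above all control values. *Enpp5*, a membrane protein of the ectonucleotidase family, gave 1039.9 and 1075 in control, 774 and 754 in EED-null, 513 and 560.4 in K27M and 353 and 409 in EZHIP libraries. All 3 altered lines were below control for *Enpp5*, in the order EZHIP, K27M and EED-null. *Gstt1*, a glutathione transferase, gave 233 and 226 in control, 112 and 120.2 in EED-null, 183 and 160.0 in K27M and 88.8 and 105 in EZHIP libraries.

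The 7 genes of chromatin, DNA and transcription had a median of -0.32 in EED-null, -0.15 in K27M and -1.49 in EZHIP cells. *Phf19* was the only gene of the 76 on a list of 34 PRC2, PRC1 and H3K27 demethylase genes, of which 2 were in the table at all. It gave 311 and 275 in control, 229 and 204 in EED-null, 339 and 327 in K27M and 112 and 123.1 in EZHIP libraries. The 4 lines did not overlap, with K27M highest, then control, EED-null and EZHIP, and the EZHIP mean was 40.2% of control. On the rescaled values K27M was below control for all 7 genes, *Phf19* included. *Tet1*, which oxidises 5-methylcytosine in DNA, gave 343 and 360.2 in control, 293 and 270.4 in EED-null, 317 and 318 in K27M and 151 and 144 in EZHIP libraries. Its replicates were tight and its EZHIP mean was 42.0% of control. *Tex15*, a germ cell protein required for silencing of transposons, gave 181 and 171 in control, 109.5 and 108 in EED-null, 199 and 192 in K27M and 32 and 34.2 in EZHIP libraries. EED-null cells held an intermediate level of *Tex15*, well separated from control and from EZHIP. *Zfp286*, a zinc finger gene, gave 115 and 106 in control, 119 and 108 in EED-null, 113 and 122 in K27M and 30.8 and 46.7 in EZHIP libraries. It was the 1 gene of the group among 67 transcription regulators listed by prefix. Those prefixes missed other genes of this role, *Lmx1b* among them.

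*Bicc1*, an RNA-binding protein of the KH and SAM domain type, combined high reads with a wide gap. Its values were 866 and 867 in control, 893 and 781 in EED-null, 1366 and 1589.5 in K27M and 150.3 and 161 in EZHIP libraries. The EZHIP mean was 156 ± 7.37 (SD, n = 2) against 866 ± 0.189 in control, or 17.95% of it, and the K27M libraries lay above all others. *Pkd2*, the ciliary cation channel polycystin-2, gave 2304 and 2351 in control, 1725 and 1783 in EED-null, 1184 and 1251 in K27M and 1064 and 1129 in EZHIP libraries. Its EZHIP and K27M values differed by -0.15 ± 0.10 on the log2 scale, and its K27M difference of -0.93 from control was inside the limit. *Bbs9*, a subunit of the complex that sorts membrane proteins into cilia, gave 357 and 334 in control, 209 and 215 in EED-null, 188 and 163 in K27M and 167 and 171 in EZHIP libraries, and its EZHIP and K27M libraries overlapped. The 4 genes of cilium and axoneme had medians of -0.57 in K27M and -0.55 in EED-null cells, the lowest K27M median of the 7 roles on the deposited scale. These 4 genes did not move together. They ranged from -0.97 to 0.57 in K27M and from -0.88 to 0.03 in EED-null cells, with *Dnahc7b* above control in both. *Sash1*, a signalling scaffold, gave 1083 and 1079 in control, 661 and 696 in EED-null, 825 and 915 in K27M and 519.6 and 522 in EZHIP libraries, with no overlap between the lines.

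**Figure D2:**
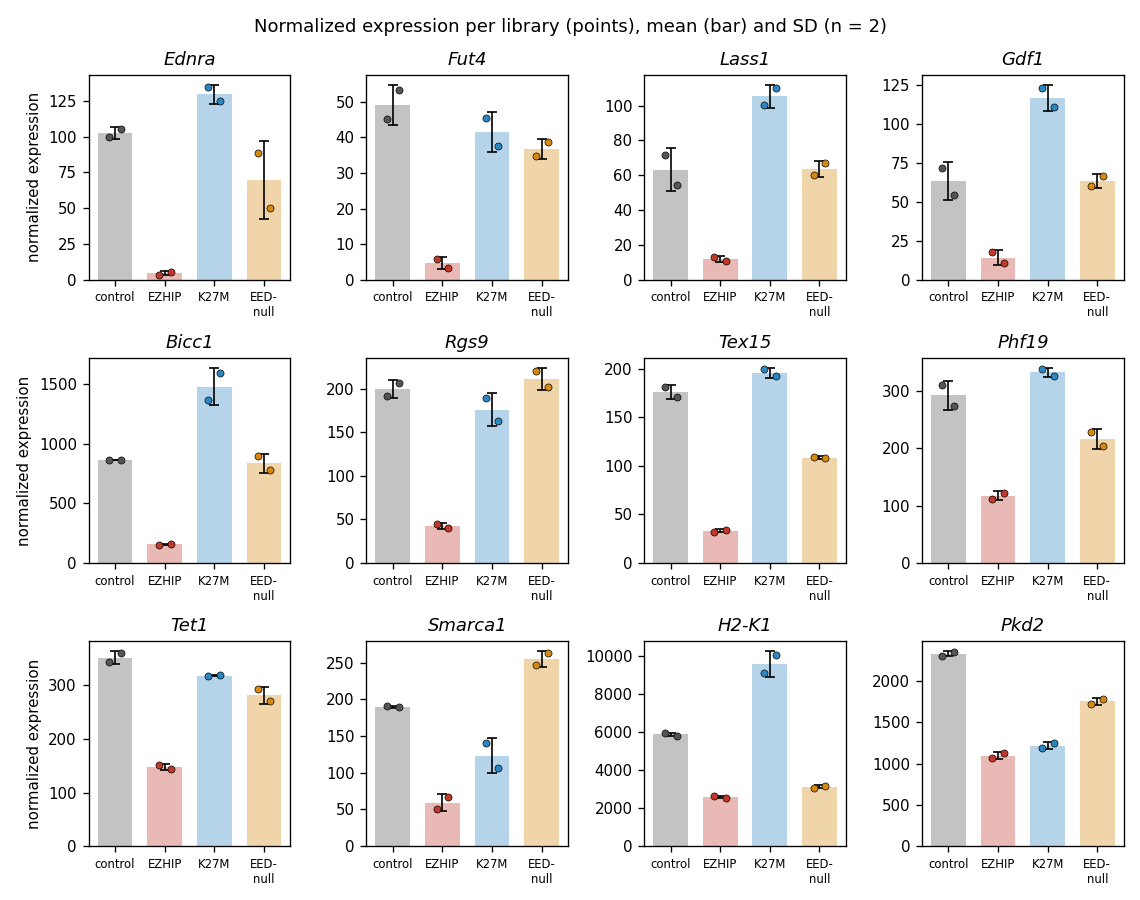
Normalized expression (y axis, from 0, a scale of its own in each panel) of 12 of the genes in control, EZHIP, K27M and EED-null cells, as 2 libraries (points), their mean (bar) and SD (error bar). The EZHIP bar is the lowest in all 12 panels, which the rule ensures for each of the 76 genes. *H2-K1* and *Pkd2* differ in which other line comes closest to it, EED-null for *H2-K1* and K27M for *Pkd2*.

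The remaining *2010107G23Rik* and *Xkr5* were low in the same way. *2010107G23Rik*, named Fam241b in RefSeq, gave 54.4 and 55.4 in control, 56.8 and 41.7 in EED-null, 53.8 and 42 in K27M and 11.8 and 5.70 in EZHIP libraries. *Xkr5*, of the XK-related family of membrane proteins, gave 60.6 and 44.3 in control, 34.7 and 41.7 in EED-null, 32.5 and 29.7 in K27M and 16.6 and 9.12 in EZHIP libraries. For both, the EZHIP libraries were the lowest, which the rule favours, and the means of the other lines were below control. Of the 76 genes, *Pla2r1* had a control mean under 20 and was at the limit of detection in EZHIP cells, with 1 and 2 reads. Taking 3 reads per library as the floor, it was at least 3.04-fold lower there.

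The roles were assigned after the values were seen, so differences between them are descriptions and not tests. The 9 genes of antigen presentation and immune signalling formed the role in which the other lines separated. They are *H2-K1* and *H2-Gs10* (classical and nonclassical MHC class I), *H2-DMb1* (MHC class II peptide loading), *Cxcl16* (a chemokine), *Icosl* (a costimulatory ligand of T cells), *E330016A19Rik* (Cgas in RefSeq, the cytosolic DNA sensor), *Gm6907* (Phf11c), *Gm13275* and *Gca* (grancalcin of leukocytes). All 9 were above control in K27M cells, from 0.20 to 0.95, and all 9 were below it in EED-null cells, from -0.97 to -0.40. On the rescaled values 6 of the 9 remained above control in K27M cells, *H2-Gs10*, *H2-DMb1* and *E330016A19Rik* being below, and all 9 remained below in EED-null cells. *H2-K1* gave 5942 and 5814 in control, 3083 and 3179 in EED-null, 9111 and 10064 in K27M and 2637 and 2542 in EZHIP libraries. K27M was highest for *H2-K1*, and EZHIP and EED-null were low together. *H2-Gs10*, named H2-Q4 in RefSeq, gave 3017 and 2983 in control, 1744 and 1766 in EED-null, 3633 and 3858 in K27M and 991 and 931 in EZHIP libraries. Since class I genes are near-identical copies, as are the families of *Gm6907* and *Gm13275*, reads could be split between relatives and these 4 values are uncertain.

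The comparison of K27M with EED-null cells is the one in which the rule sets no direction, although it bounds each line to within 2-fold of control. The test was limma on log2(value + 1) with all 8 libraries in the fit, with Benjamini-Hochberg adjustment across 875 genes, and a call needed an adjusted p under 0.05 and a difference of at least 2-fold. Of all genes 54.4% were called, 27.8% higher and 26.6% lower in K27M than in EED-null cells. Of the 76 genes 11 were called (14.5%), 7 higher (9.21%) and 4 lower (5.26%), shares that the limits of the rule hold down. The 304 other genes lower in EZHIP cells leaned the same way, with 42.4% called higher and 19.7% lower and a median difference of 0.58, against 0.17 over the 76 genes. Without the 2-fold limit 40 of the 76 genes passed, 27 higher and 13 lower, against 77.6% of all genes, 39.7% higher and 37.9% lower. All 7 called higher were immune genes, and the other 2 of that role, *Cxcl16* and *H2-DMb1*, were not called at 2-fold. Since the role was assigned after the values were seen, this overlap is a description and not a test.

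The direct difference was largest for *Gca*, at 1.64 ± 0.15 (SE) with an adjusted p of 0.00014 by limma, and its K27M libraries of 164 and 162 stood above the EED-null libraries of 52.7 and 50.4 and above 72.9 and 95.2 in control. *H2-K1* differed by 1.61 ± 0.10 (limma, adjusted p = 2.6e-05). *Gm13275* differed by 1.49 ± 0.23 and *Icosl* by 1.48 ± 0.15. *Icosl* gave 145 and 157 in control, 94.3 and 84.3 in EED-null, 229 and 275 in K27M and 69.8 and 59.3 in EZHIP libraries. *Gm6907*, *E330016A19Rik* and *H2-Gs10* differed by 1.44, 1.17 and 1.09. *E330016A19Rik* gave 436 and 455 in control, 232 and 222 in EED-null, 534 and 487 in K27M and 170.4 and 166 in EZHIP libraries, and *Gm13275* gave 45.5 and 42.9 in EED-null and 102 and 157 in K27M libraries. A list of 71 interferon response genes, chosen with earlier results of these data known, had 35 genes in the table. All 35 met the limit in EZHIP cells and were called higher in K27M than in EED-null cells, with a median difference of 3.67, and *H2-K1* was the 1 among the 76. Most genes of that list therefore fell outside the limits set for K27M or EED-null cells.

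In the opposite direction, *Kctd12b*, of a family of potassium channel tetramerisation domain proteins, was lower in K27M than in EED-null cells by a difference of -1.56 ± 0.17 (limma, adjusted p = 0.00033). Its values were 92.4 and 87.8 in control, 122 and 159.9 in EED-null, 47.3 and 46.3 in K27M and 26 and 20.5 in EZHIP libraries. *Smarca1*, the ATPase of an ISWI chromatin remodeller, gave 191 and 189 in control, 247 and 263 in EED-null, 140.1 and 107 in K27M and 50.9 and 67.3 in EZHIP libraries. *Mfap2*, a glycoprotein of elastic microfibrils, gave 286 and 263 in control, 374 and 368 in EED-null, 172 and 199 in K27M and 121 and 95.8 in EZHIP libraries. For these 3 genes the order was EZHIP, K27M, control and EED-null from low to high, without overlap between lines on the deposited scale. The differences of K27M from EED-null were -1.05 ± 0.19 for *Smarca1* and -1.001 ± 0.15 for *Mfap2* (limma, adjusted p = 0.0025 and 0.0012). *Rtn4r*, the Nogo receptor, gave 21.6 and 31.7 in control, 41.6 and 47.5 in EED-null, 12.1 and 21 in K27M and 5.92 and 12.5 in EZHIP libraries, a difference of -1.42 ± 0.40 (limma, adjusted p = 0.018) on few reads. The call of *Rtn4r* was lost without EED-null replicate 1, EED-null replicate 2 or K27M replicate 1, that of *Mfap2* without EED-null replicate 1 (-0.99) or K27M replicate 1 (-0.89) or with a pseudocount of 5 (-0.99), and that of *Smarca1* without K27M replicate 2 (-0.86).

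**Figure D3:**
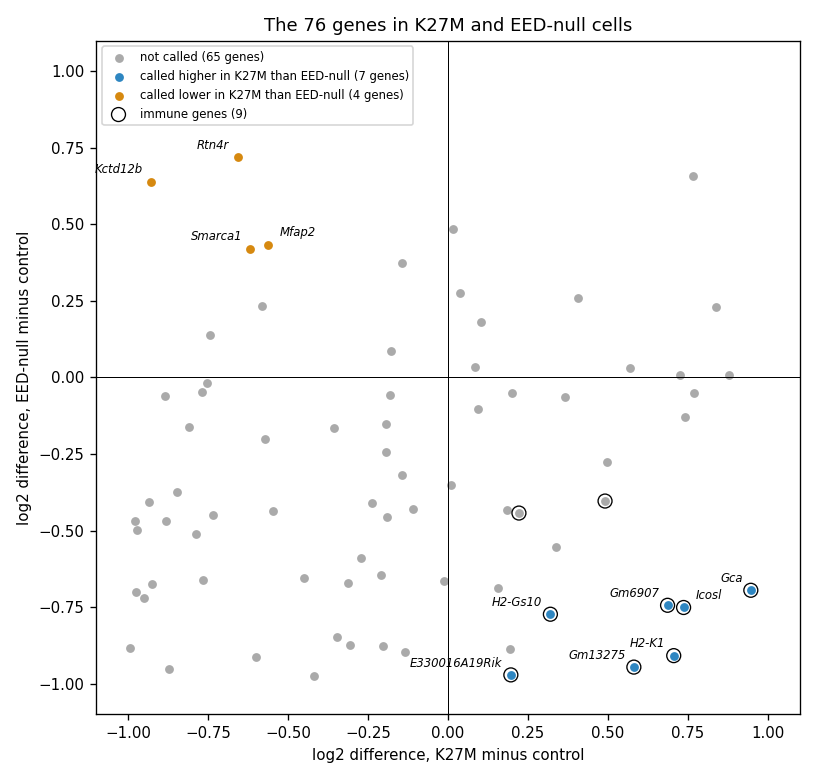
Log2 difference from control in K27M cells (x axis) and in EED-null cells (y axis) for the 76 genes, coloured by the call of the direct limma comparison of the 2 lines, with the 9 immune genes circled. All 9 circled genes, a role assigned after the values were seen, lie to the right of 0 and below 0. The 4 genes called lower in K27M lie at the upper left.

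EZHIP cells were also set directly against the 2 other lines. The rule favours lower values in EZHIP cells, so these counts are descriptions. Against K27M cells, 48 of the 76 (63.2%) were called lower, as were 32.6% of all genes, and against EED-null cells 40 (52.6%) were called lower, as were 25.1% of all genes. Both calls were made for 30 genes, against 115 of the 875, the call against K27M alone for 18, that against EED-null alone for 10 and neither for 18. Without the 2-fold limit 65 genes were lower than in K27M cells and 65 lower than in EED-null cells, as were 44% and 37.3% of all genes. The immune genes were all 9 called against K27M and 1 of them, *Cxcl16*, against EED-null cells, so for the other 8 the EZHIP level was not shown to be 2-fold below that of EED-null cells.

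Among the genes with both calls were *Ednra*, with differences of -4.56 ± 0.30 from K27M and -3.62 ± 0.30 from EED-null cells, *Fut4* with -2.94 ± 0.24 and -2.77 ± 0.24, *Bicc1* with -3.24 ± 0.13 and -2.42 ± 0.13, *2010107G23Rik* with -2.39 ± 0.33 and -2.42 ± 0.33, and *Lass1* with -3.04 ± 0.17 and -2.32 ± 0.17. *Rgs9* gave -2.02 ± 0.13 and -2.29 ± 0.13. The gap between EZHIP and the nearer of the 2 lines was at least 1 for 29 genes and under 0.25 for 8. *Phf19* was called against K27M (-1.49 ± 0.12) and not against EED-null cells (-0.87 ± 0.12), where it missed the 2-fold limit. The EZHIP level was close to those of the other lines for *Maml2*, at -0.18 ± 0.10 from K27M and -0.10 ± 0.10 from EED-null cells, or for *Bbs9*, at -0.05 ± 0.11 and -0.33 ± 0.11. The 18 genes with neither call were *Nckap5*, *Nacad*, *Pygl*, *Gstt1*, *D130040H23Rik*, *Kif5a*, *Armcx4*, *Pkd2*, *Fam171b*, *Gpr146*, *Maml2*, *Sash1*, *Elovl4*, *Scamp5*, *Bbs9*, *Wdr5b*, *Reck* and *1700029I01Rik*.

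**Figure D4:**
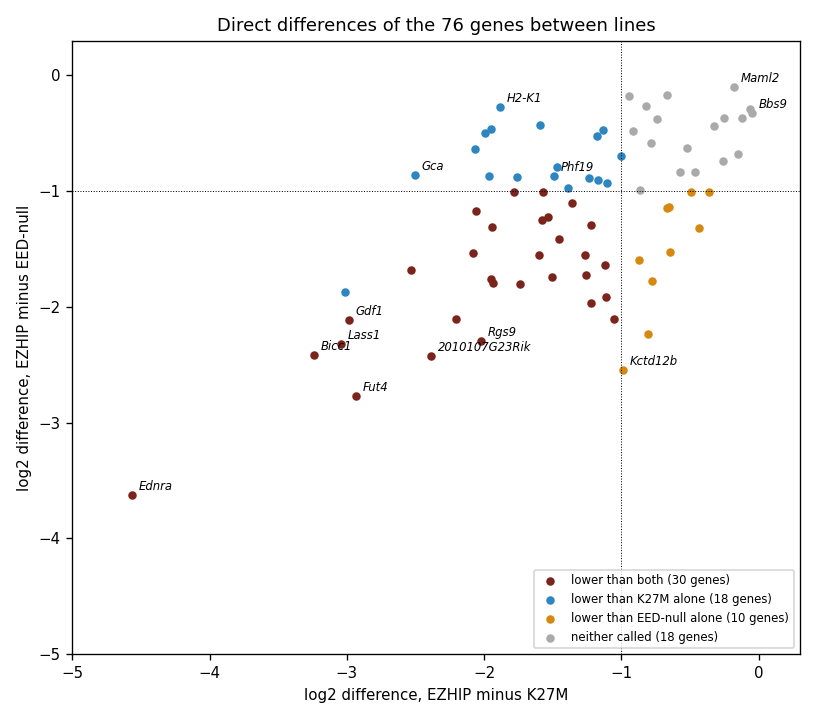
Log2 difference of EZHIP from K27M cells (x axis) and from EED-null cells (y axis) by limma for the 76 genes, coloured by which direct comparison was called; dotted lines mark 2-fold. The 30 genes called in both lie at the lower left, with *Ednra* farthest out, and the 18 with neither call lie near the upper right corner.

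**Figure D5:**
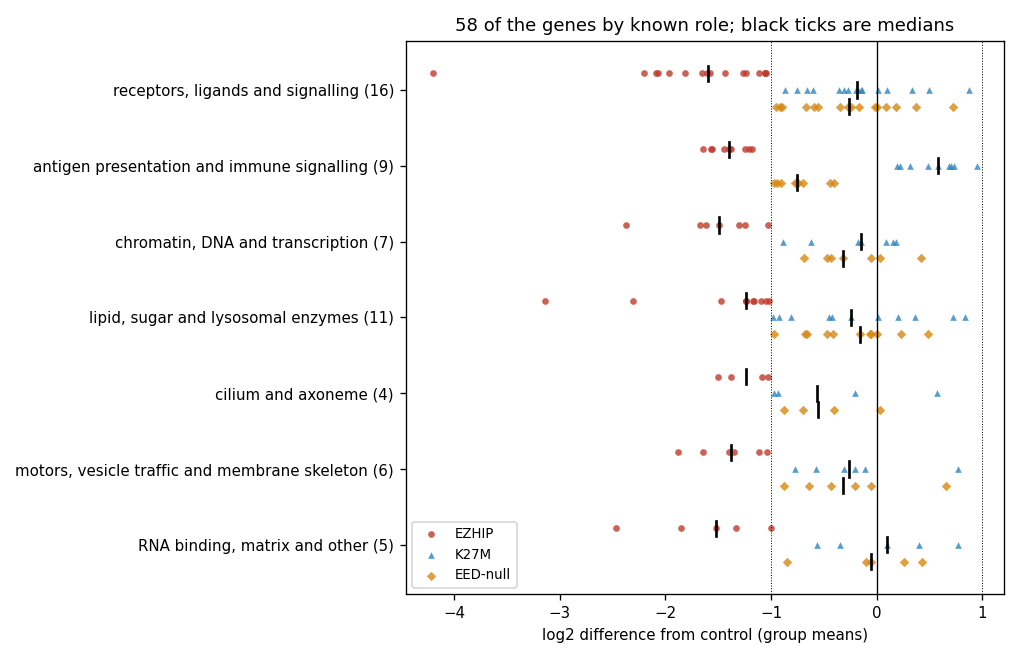
Log2 difference of group means from control (x axis) in EZHIP, K27M and EED-null cells for the 58 genes placed in 7 roles (y axis, number of genes in brackets), 1 symbol per gene and line, with medians as black ticks. The roles were assigned after the values were seen. In the immune row the K27M and EED-null symbols separate to either side of 0, while in the other rows they overlap.

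The genes were spread over the genome. Of the 76 genes 75 had 1 locus in the mm9 annotation. Of the genes of the table lower in EZHIP cells, 362 had 1 locus. Chromosomes 8 and 9 held 9 of the 76 genes each, out of 22 and 42 such lower genes (40.9% and 21.4%). *Lass1* and *Gdf1*, whose reads cannot be separated, are both counted on chromosome 8. Chromosomes 2 and 10 held 8 each, out of 27 lower genes each. Chromosomes 7 and 18 held 0, out of 13 and 8. No share was tested. Besides *Lass1* and *Gdf1*, several pairs of the 76 genes lay within 2 Mb of each other. *H2-K1* (chromosome 17, 34132962 to 34137278) and *H2-DMb1* (34290017 to 34297168) were 153 kb apart. On chromosome 9, *Endod1* and *Fut4* were 367 kb apart with no other gene of the table between them, and on chromosome 2, *Garnl3* and *Lmx1b* were 429 kb apart. Neighbours could differ in the other lines. *Endod1* was 0.74 above control in K27M cells whereas *Fut4* was at -0.24. Transcript length, with a median of 3666 bases, and GC content, with a median of 49.7%, were known for 74 of the 76 genes, against 3718 bases and 49.2% for the 304 other genes lower in EZHIP cells.

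Lists of genes by pathway and cell type, chosen with earlier results of these data known, placed few of the genes. Of 28 lists, 15 held none of the 76 genes, 7 held 1 and 6 held 2 or more. Those 15 lists had 102 measured genes, but a gene above the limit in EZHIP cells could not be kept. Of the 18 measured immediate early and MAP kinase feedback genes, for example, 0 met that limit, so their absence was forced. The limit was met by 379 of all 875 genes, and 76 were kept. Small GTPases, motors and cytoskeleton held the most apart from uncharacterised names, with 5 of 24 listed genes (*Rgs9*, *Dync1i1*, *Rab27a*, *Dnahc7b* and *Kif5a*). Metabolic enzymes held 4 of 36, *Fut4*, *Enpp5*, *Gstt1* and, by its prefix alone, the receptor *Pla2r1*. Cell surface receptors held 3 of 42, *Ednra*, *Gpr146* and, by prefix alone, *Gprasp2*. Adhesion and junction genes held 0 of 33 and histone genes 0 of 4. The EZHIP limit was met by 9 of the 24 GTPase, motor and cytoskeleton genes and 11 of the 36 enzymes. It was met by 23 of the 42 receptors, 18 of the 33 adhesion genes and 2 of the 4 histone genes. These shares were not tested.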

How the data were processed

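RNA from 8 MEF libraries, 2 per group, was measured by sequencing of rRNA-depleted RNA. The deposited table holds normalized expression, a signal per gene and library: reads estimated by the authors with RSEM 1.2.4 (version from the submitters' processing notes) on an mm9 transcriptome, divided by 1 size factor per library and not scaled by length. RNA of another cell line was added at extraction, and whether it entered the size factors is not given in the sources used here, so a change in total RNA may not show in these values. The authors restricted the table to 875 genes at least 2-fold different between EZHIP and control cells by EBSeq, so EZHIP against control was not tested and other genes are not covered. Its values are multiples of 1 read for between 72.2% and 82.5% of entries (tolerance 0.001 read). Replicates differed beyond sampling noise, with a chi-square per gene between 1.51 and 3.51.

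Groups came from the sample labels. The rule given at the opening of the results was applied to group means with a pseudocount of 1, with no filter on low values. The test was limma 3.58.1 (R 4.3.3) applied to log2(value + 1) with 1 mean per group and all 8 libraries, adjusted by Benjamini-Hochberg over 875 genes and called at an adjusted p under 0.05 and at least 2-fold; the script was tested on simulated data. Counts and figures used Python 3.11.15, pandas 2.3.3, numpy 2.4.6 and matplotlib 3.10.9. The members, the gene lists, the roles and the rule for named genes were chosen with earlier results of these data known. Named were the genes lowest in EZHIP cells, those with the widest gap to the other lines, the highest control means (not scaled by length), those called in K27M against EED-null cells, those nearest to each limit and the lowest of each list, with a control mean of at least 20; any other gene was named after its values were seen. Pseudocounts, a filter, scaling, each library in turn, a replicate block and other limits were tried. Same-numbered libraries deviated together at most weakly (correlations between -0.0893 and 0.105). The main test did not pair them, and these correlations cannot exclude a shared batch. The limit of detection was set at 3 reads per library, which covers counting error only. The values of 1 of the 76 genes are not reported here by name.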

Additional observations from a re-analysis of the deposited data

Results flagged for a closer look

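Direct differences between lines were singled out for a closer look. Calls by limma against EZHIP cells numbered 48 with K27M and 40 with EED-null cells, all of them lower in EZHIP, both directions that the selection favours. K27M and EED-null cells, between which the rule sets no direction, differed by call in 11 genes, 7 higher and 4 lower in K27M. Among the 304 other genes lower in EZHIP cells, 42.4% were called higher and 19.7% lower in the same comparison. The log2 difference of K27M from EED-null cells was 1.64 for *Gca*, 1.61 for *H2-K1*, 1.49 for *Gm13275*, 1.48 for *Icosl*, 1.44 for *Gm6907*, 1.17 for *E330016A19Rik* and 1.09 for *H2-Gs10*. It was -1.56 for *Kctd12b*, -1.42 for *Rtn4r*, -1.05 for *Smarca1* and -1.001 for *Mfap2*. With 2 libraries per group, no library could be examined as an outlier within its group.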

How the results depend on the processing

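The count of 76 genes was 30 with an EZHIP limit of -1.5, 23 with K27M and EED-null limits of 0.5 and 38 with libraries rescaled on the listed genes; without each library in turn it was between 69 and 77. The 11 calls of K27M against EED-null cells were 40 without the 2-fold limit (27 higher, 13 lower), and leaving out 1 library gave 2 to 4 genes called lower, with 2 without EED-null replicate 1 and without K27M replicate 1. EZHIP against EED-null cells gave 65 genes without the 2-fold limit. Medians of the log2 difference from control were -0.80 in EED-null, -0.65 in K27M and -1.69 in EZHIP cells after rescaling and -1.28 in EZHIP cells with a pseudocount of 5, while leaving out 1 library gave -0.42 to -0.36, -0.20 to -0.14 and -1.41 to -1.36. With the replicate block the counts of calls were 11, 48 and 40, the same as without it. No median and no direct comparison named here changed direction, but rescaling lowered the number of genes above control from 30 to 14 in K27M and from 18 to 6 in EED-null cells. The rescaling used genes selected as different in EZHIP cells, so part of its shift follows from that selection. Few reads limit the lowest genes, and 2 libraries per group limit all tests.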
